A study of Mus musculus with 6 samples.

Results

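Neurofilaments and microtubules are the fibres that hold a neuron's axon and dendrites in shape. The microtubules also serve as the tracks along which its cargo moves. The genes described here are 10 that code for parts of this neuronal cytoskeleton, taken by symbol from the 52550 genes of the count table: the neurofilament subunit genes Nefl, Nefm and Nefh, the internexin gene Ina, the beta tubulin genes Tubb3 and Tubb4a, the microtubule-associated protein genes Map1b, Map2 and Mapt, and the stathmin gene Stmn2. All 10 had enough counts to be tested, so that the filter on low counts removed none of them. They were measured by RNA sequencing of the hippocampus in 6 libraries, each from 1 male C57BL/6J mouse. In the 3 TAF15 OE mice the hippocampal CA1 field of each side had received an adeno-associated virus labelled AAV-CaMKIIα-TAF15. In the 3 Control mice the injection was of the virus labelled AAV-control, whose promoter and insert are not given in the sources used here. All 6 mice were injected at 8 weeks of age, the labels give 31 days for every library, and no mouse was uninjected. The CaMKIIα promoter drives expression in excitatory neurons, whereas the RNA came from all the cells of the hippocampus. The comparison therefore asks how the mixed tissue's transcripts for these genes differed between mice with added TAF15, an RNA-binding protein of the FET family, and their controls.

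In neurons the light, medium and heavy neurofilament chains assemble with internexin into filaments that set the calibre of large axons. Alpha and beta tubulin pair into the building block of the microtubule, tau (Mapt) lies mostly in axons, MAP2 in dendrites and cell bodies, and MAP1B is most abundant while axons grow. Stathmin-2 binds tubulin and is known from axon growth and repair, and neurofilament light chain released from damaged axons is used as a marker of axonal injury. Several of these genes are also used as general markers of neurons. In bulk tissue, fewer cells of a type and less RNA per cell cannot be told apart.

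The libraries were of like depth, from 14965464 to 16067000 counts. Taf15 itself stood at or below 958 counts in every Control library and at or above 3661 in every TAF15 OE library, a 4.27-fold rise in which vector transcript and the mouse's own cannot be told apart. Markers of dentate granule cells (Prox1, 12.1 to 18.4 FPKM, fragments scaled by gene length and by library total) and of CA1 pyramidal cells (Wfs1, 18.1 to 42.4 FPKM) were present in all 6 libraries, as were Zbtb20 (8.83 to 13.1 FPKM) and Neurod6 (50.9 to 86.5 FPKM). These 4 hippocampal genes were picked with the data in view. The first principal component, with 46.3% of the variance, separated the groups, and the second, with 21.7%, divided Control 1 and TAF15 OE 1 from the remaining 4 libraries. The choroid plexus markers were also low in those libraries, so each count led with below was repeated without both of them. Of 16758 tested genes, edgeR's quasi-likelihood test called 2559 (15.3%) at a Benjamini-Hochberg adjusted p under 0.05, 1562 higher in TAF15 OE (9.32%) and 997 lower (5.95%). With total counts as the only scaling these became 1838 higher and 716 lower, and with scaling on general neuron markers 6485 higher and 142 lower.

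The coding sequences show how the filament subunits differ. The heavy chain's tail is built from repeats of lysine-serine-proline, where the serine takes up phosphate in axons. A search of the annotated coding sequences found 51 such triplets in the 1090 residues of Nefh, 4 in the 848 of Nefm, and 0 in the 543 of Nefl and the 501 of Ina. The stretch of Nefh with most of them, codons 519 to 548 on chromosome 11, is printed with its 5 triplets in capitals. The start of Nefl on chromosome 14, with its ATG in capitals, is shown because the same bases, read on the opposite strand, are also annotated as part of Nefm, which bears on how the counts of the pair can be read.
Nefh, coding strand: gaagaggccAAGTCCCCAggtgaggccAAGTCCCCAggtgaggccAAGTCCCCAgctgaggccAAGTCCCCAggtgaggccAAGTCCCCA
Nefl, coding strand: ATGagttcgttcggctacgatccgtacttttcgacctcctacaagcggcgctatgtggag
The annotated exons of Nefl (chr14:68083863-68089095, plus strand, GRCm38) and Nefm (chr14:68082590-68124846, minus strand) share 1108 bases, through the transcript Nefm-202. That is 32.8% of the exon bases of Nefl and 19.2% of those of Nefm. Ina (chr19:47014698-47025327, plus strand) shares 456 bases, 14.1% of its exons, with Nt5c2 on the opposite strand. The sources used here do not say whether reads were counted by strand, so the part of the counts of Nefl, Nefm and Ina that comes from these stretches is uncertain. Nefh (chr11:4938754-4948064, minus strand) shares no exon base with another gene.

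All 10 genes had a lower fitted level in TAF15 OE than in Control, with log2 fold changes from -0.35 to -0.05 and a median of -0.22, though under scaling on general neuron markers 8 of them turned positive. The test called 3 of the 10 lower, Tubb3, Ina and Stmn2, and 0 higher by edgeR, against 5.95% lower and 9.32% higher among all tested genes. In 6 of the 10 (Nefl, Nefh, Ina, Tubb3, Mapt and Stmn2) all 3 TAF15 OE libraries lay below all 3 Control libraries, against 15.5% of the tested genes. These genes are abundant, and abundant genes leaned downward as a whole. Among the 4424 genes with a mean level at least that of Nefh, the least abundant of the 10, 16.9% were called lower, 33.7% lay below Control in every TAF15 OE library, 67.0% had a negative fold change and the median was -0.08. Over all tested genes 46.3% were negative and the median was 0.026. With Control 1 and TAF15 OE 1 both left out, the median of the 10 was -0.26 and 4 were called lower, Nefl being added. Over all genes that fit called 1017 lower and 1197 higher, against 997 and 1562 with all 6 libraries.

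**Figure D1:**
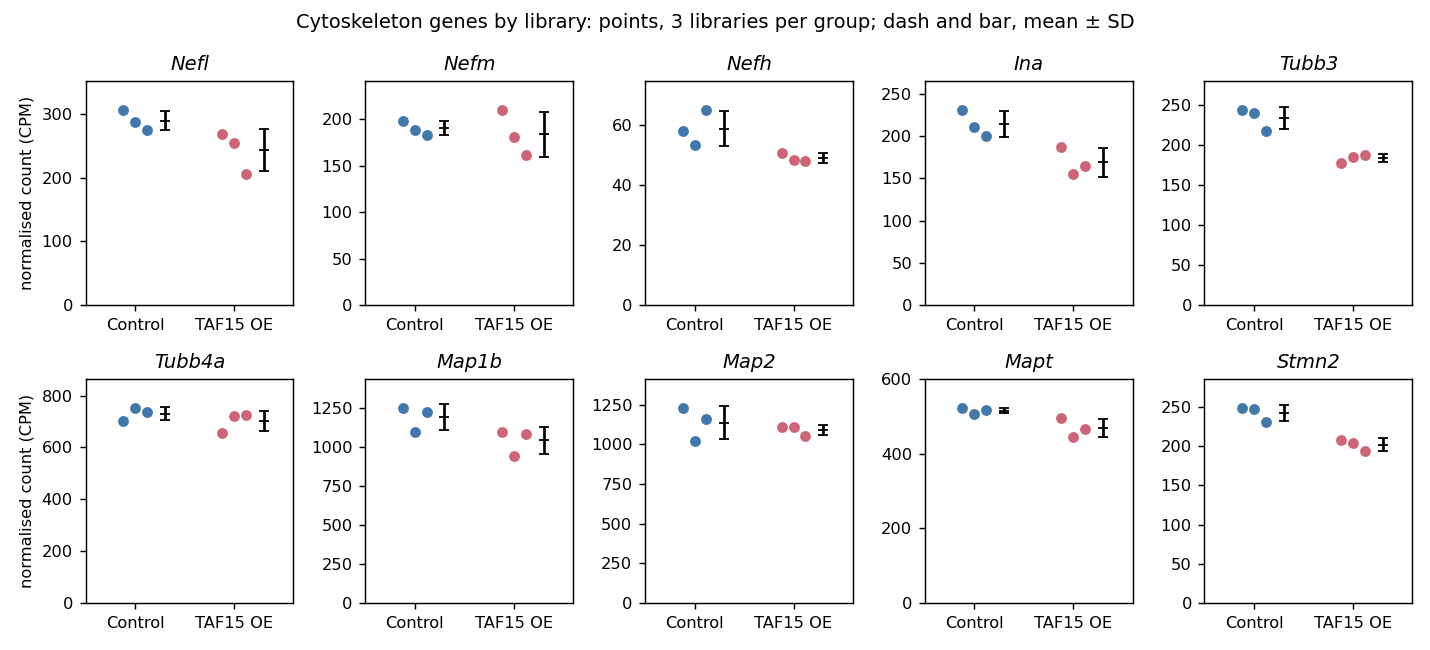
Normalised count (CPM, a count relative to the scaled library total; linear axes from 0) of the 10 genes in each library; points are the 3 libraries of a group, and the dash and bar beside them are mean ± SD. Tubb3 and Stmn2 show clear gaps between the groups, and Ina, Nefl, Nefh and Mapt narrower ones, whereas Nefm, Tubb4a, Map1b and Map2 overlap. Under scaling on general neuron markers, none of the 10 is called lower.

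Of the intermediate filament subunits, Ina was called lower and the neurofilament chains did not pass the test. Nefl (-0.25) and Nefh (-0.26) had log2 fold changes not far from that of Ina (-0.34), so the threshold alone does not set them apart. Ina codes for internexin, the filament protein that appears early in developing neurons and joins the neurofilament chains in the adult brain. It stood at 230.6, 211.2 and 200.6 CPM in Control 1, 2 and 3, against 187.5, 155.0 and 164.4 in TAF15 OE 1, 2 and 3. Every TAF15 OE library was below every Control library, with TAF15 OE 2 the lowest. Mean levels, here and below with their SD over the 3 mice of a group, were 214 ± 15.3 CPM for Control against 169 ± 16.7 for TAF15 OE, 1.27-fold lower (log2 fold change -0.34, SE 0.085, edgeR adjusted p = 0.0205). Leaving out Control 1 ended the call (adjusted p = 0.0773), as did leaving out Control 2 (0.0567), TAF15 OE 2 (0.1002) or TAF15 OE 3 (0.0620), and limma on FPKM gave adjusted p of 0.0625 to 0.123. It was kept with Control 1 and TAF15 OE 1 both left out (edgeR adjusted p = 0.00537).

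Nefl, the gene of the light chain on which the other chains assemble, had 305.5, 287.6 and 275.0 CPM in Control 1, 2 and 3, against 268.7, 253.5 and 206.1 in TAF15 OE 1, 2 and 3. The groups did not overlap, but Control 3 and TAF15 OE 1 lay close together and TAF15 OE 3 stood well below its group. The means were 289 ± 15.3 and 243 ± 32.6 CPM (log2 fold change -0.25, SE 0.095, edgeR adjusted p = 0.101). The gene passed the test without TAF15 OE 1 (log2 fold change -0.36, edgeR adjusted p = 0.0254), with Control 1 and TAF15 OE 1 both left out (-0.32, edgeR adjusted p = 0.0435) and with no filter (-0.28, adjusted p = 0.00471). Its fold change was -0.16 without TAF15 OE 3.

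Nefm, the medium chain gene, had 198.6, 188.6 and 183.6 CPM in Control, against 209.7, 180.7 and 161.2 in TAF15 OE. Here the groups overlapped, since TAF15 OE 1 was the highest of all 6 libraries and TAF15 OE 3 the lowest. The log2 fold change was -0.05 (SE 0.091, edgeR adjusted p = 0.772), and without TAF15 OE 3 it was 0.029.

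Nefh, the heavy chain gene whose repeats are printed above, had 58.1, 53.5 and 65.0 CPM in Control, against 50.8, 48.3 and 48.1 in TAF15 OE. The TAF15 OE libraries were close together and all below Control 2, the lowest of its group. The means were 58.8 ± 5.79 and 49.0 ± 1.52 CPM (log2 fold change -0.26, SE 0.086, edgeR adjusted p = 0.0618). Nefh passed the test without Control 2 (log2 fold change -0.33, edgeR adjusted p = 0.0451) or without TAF15 OE 1 (-0.31, adjusted p = 0.0479), with the size factors of DESeq2 (0.0495) and with no filter (0.0167).

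Ratios of FPKM within a library compare subunits without any scaling between libraries. Nefm over Nefl was 0.380, 0.383 and 0.390 in Control, against 0.456, 0.417 and 0.457 in TAF15 OE, so that every TAF15 OE library held more Nefm transcript per Nefl transcript. The mean difference was 0.20 on the log2 scale, and the exact two-sided permutation test gave p = 0.1, the smallest that 3 against 3 libraries allow (adjusted p = 0.25 over the 5 ratios computed). Nefh over Nefl (0.157 to 0.200 in Control, 0.160 to 0.197 in TAF15 OE) and Ina over Nefl (0.761 to 0.788 and 0.638 to 0.832) overlapped between the groups. The exact permutation test gave p = 0.9 for Nefh over Nefl and p = 0.7 for Ina over Nefl. As shares of the summed FPKM of the 4 subunits, Nefl made up 42.9% ± 0.409 in Control and 42.7% ± 2.46 in TAF15 OE, Ina 33.1% ± 0.734 and 31.1% ± 2.33, and Nefh 7.41% ± 0.948 and 7.34% ± 0.560. The Nefm share was 16.5% ± 0.166 in Control and 18.9% ± 0.542 in TAF15 OE, with no overlap between the groups. The bases that Nefl and Nefm share on opposite strands enter the gene length on both sides of their ratio. Whether reads from these bases were counted for both genes is not known.

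**Figure D2:**
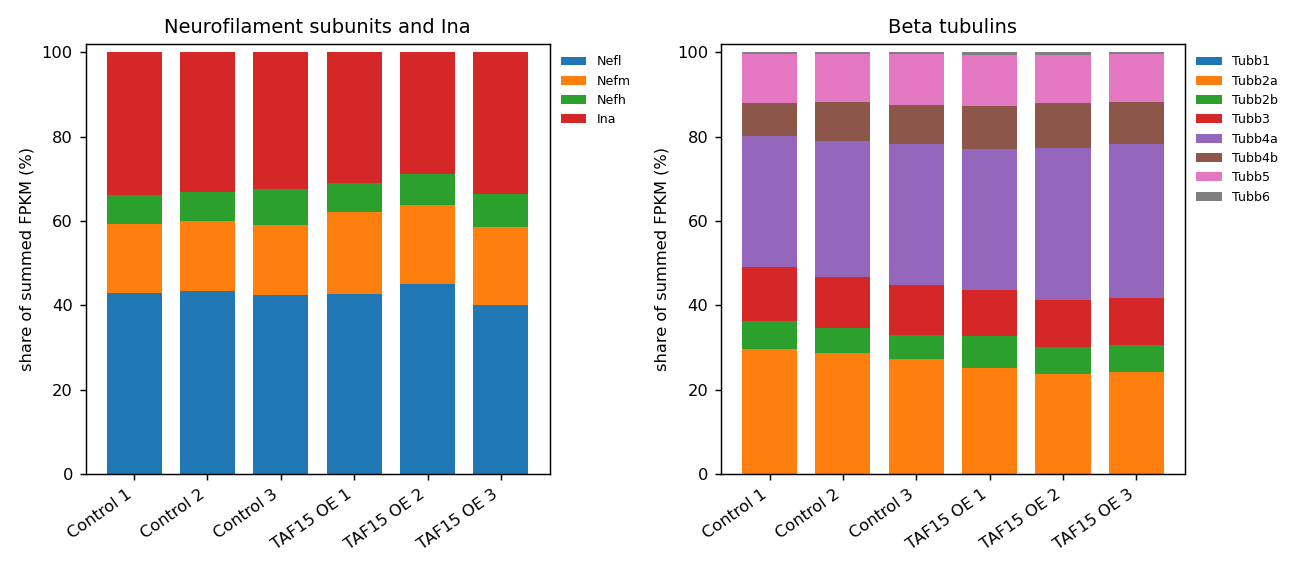
Share of the summed FPKM (%) by library, stacked from 0, for the 4 intermediate filament subunits (left) and the beta tubulins (right). The Nefm share is larger in each TAF15 OE library than in each Control library (16.5% and 18.9% on average), and the Tubb2a share is smaller (28.5% and 24.4%).

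Of the beta tubulins, Tubb3, the neuron-specific class III isotype, fell, and Tubb4a, an isotype abundant in the adult brain and also made by oligodendrocytes, did not pass the test. Tubb3 stood at 243.0, 240.0 and 216.9 CPM in Control, against 177.3, 185.1 and 187.5 in TAF15 OE. All 3 TAF15 OE libraries lay far below the lowest Control library, and close to each other. The means were 233 ± 14.3 and 183 ± 5.33 CPM, 1.27-fold lower (log2 fold change -0.35, SE 0.069, edgeR adjusted p = 0.00764). The call held with each library left out in turn, at an adjusted p of 0.0106 to 0.0313, and with Control 1 and TAF15 OE 1 both left out (edgeR adjusted p = 0.0192). It was lost under scaling on general neuron markers (log2 fold change -0.07, adjusted p = 0.421) and on FPKM without a filter (limma adjusted p = 0.0741). Tubb4a had 702.5, 751.9 and 735.7 CPM in Control, against 656.0, 720.6 and 726.1 in TAF15 OE, and the groups overlapped (log2 fold change -0.06, SE 0.070, edgeR adjusted p = 0.633). Tubb3 over Tubb4a in FPKM was 0.413, 0.381 and 0.352 in Control, against 0.322, 0.306 and 0.308 in TAF15 OE. This ratio was lower in every TAF15 OE library, by 0.29 on the log2 scale on average (exact two-sided permutation test p = 0.1, adjusted p = 0.25 over the 5 ratios).

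The coding sequences of Tubb3 and Tubb4a were identical at 83.5% of 1335 aligned bases and 91.9% of 444 residues, but no 50-base stretch of Tubb3 and only 0.184% of those of Tubb4a occurred in the transcripts of another gene. Across the family, Tubb4a made up 32.3% ± 1.27 of the summed beta tubulin FPKM in Control and 35.3% ± 1.65 in TAF15 OE. Tubb2a, another major brain isotype, made up 28.5% ± 1.23 and 24.4% ± 0.850, and Tubb3 12.3% ± 0.498 and 11.03% ± 0.229. Tubb2a and Tubb3 had lower shares in every TAF15 OE library than in any Control library, whereas the Tubb4a shares overlapped. Tubb4b (8.74% ± 0.748 and 10.2% ± 0.325) had a higher share in every TAF15 OE library. The remaining parts were Tubb5 (11.6% in both groups), Tubb2b (6.07% and 6.86%) and Tubb6 (0.423% and 0.537%).

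The promoters of the called genes Tubb3 and Ina are printed beside that of Tubb4a, which was not called, as RefSeq gives them in GRCm38.p6. Each runs from 250 bases before to 50 bases after a transcription start annotated by RefSeq, which can differ from the outermost base of the annotated gene, and capitals mark the GC box GGGCGG on either strand, the binding motif of Sp1-family factors. Tubb3 is on the plus strand (chr8:123411303-123411602), Tubb4a on the minus strand (chr17:57087551-57087850) and Ina on the plus strand (chr19:47014431-47014730).
Tubb3, promoter: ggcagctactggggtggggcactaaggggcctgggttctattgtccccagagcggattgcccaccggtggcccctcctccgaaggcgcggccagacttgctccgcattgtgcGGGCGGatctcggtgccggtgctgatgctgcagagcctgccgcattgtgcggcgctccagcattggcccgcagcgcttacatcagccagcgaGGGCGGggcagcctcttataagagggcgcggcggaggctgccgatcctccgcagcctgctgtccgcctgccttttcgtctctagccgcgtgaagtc
Tubb4a, promoter: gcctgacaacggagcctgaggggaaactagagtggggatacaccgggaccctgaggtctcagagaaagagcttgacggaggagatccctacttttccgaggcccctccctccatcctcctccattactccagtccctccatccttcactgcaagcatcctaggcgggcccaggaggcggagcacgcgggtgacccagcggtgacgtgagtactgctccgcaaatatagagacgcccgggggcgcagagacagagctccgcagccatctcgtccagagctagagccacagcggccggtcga
Ina, promoter: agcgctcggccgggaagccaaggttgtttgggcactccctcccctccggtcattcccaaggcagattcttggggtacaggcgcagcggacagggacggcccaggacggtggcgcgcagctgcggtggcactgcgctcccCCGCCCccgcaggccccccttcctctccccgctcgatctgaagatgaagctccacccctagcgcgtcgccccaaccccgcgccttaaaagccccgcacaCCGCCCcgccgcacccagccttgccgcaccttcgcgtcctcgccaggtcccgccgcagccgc
Promoters were matched for 5 of the 10 genes. The GC box occurred 5 times in the Map2 promoter, 2 times each in those of Tubb3, Ina and Map1b and 0 times in that of Tubb4a, and 35.7% of all 32851 promoters of this length hold it. The E-box CANNTG, which 72.3% of all promoters hold, occurred 1 time each in Ina and Map1b. The TATA box TATAAA (13.6% of all promoters) occurred 1 time in Map1b, and the cAMP response element TGACGTCA (1.79%) in none of the 5. Both strands were searched and no matches of different motifs overlapped. Map2 and Map1b, which were not called, also hold the GC box, so its presence did not separate the called genes from the others.

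The 3 microtubule-associated protein genes did not pass the test. Mapt, which codes for tau, had 522.7, 507.2 and 517.8 CPM in Control, against 494.7, 445.6 and 467.0 in TAF15 OE. The groups did not overlap, with TAF15 OE 1 just below the Control libraries. The means were 516 ± 7.96 and 469 ± 24.7 CPM (log2 fold change -0.14, SE 0.066, edgeR adjusted p = 0.195), and in 18 alternative fits it was never called. Map1b, the gene of the large protein that binds microtubules in growing axons, had 1252.1, 1096.7 and 1225.4 CPM in Control, against 1100.2, 942.6 and 1087.6 in TAF15 OE. Control 2 fell just below TAF15 OE 1, so that the groups overlapped (log2 fold change -0.19, SE 0.084, edgeR adjusted p = 0.155). Map2, whose protein spaces microtubules in dendrites, had 1230.1, 1023.4 and 1159.6 CPM in Control, against 1107.8, 1111.7 and 1055.2 in TAF15 OE. Control 2 was the lowest library of all for this gene, and the log2 fold change was -0.06 (SE 0.080, edgeR adjusted p = 0.678). Map2 over Mapt in FPKM ran from 0.924 to 1.08 in Control and from 1.03 to 1.14 in TAF15 OE, with overlap (mean difference 0.082 on the log2 scale, exact permutation p = 0.5, adjusted p = 0.833).

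Stmn2, the stathmin of growing and regenerating axons, fell. It stood at 248.7, 247.0 and 230.9 CPM in Control, against 208.4, 204.5 and 193.4 in TAF15 OE. Both groups were tight and well apart, at 242 ± 9.80 and 202 ± 7.80 CPM, 1.20-fold lower in TAF15 OE (log2 fold change -0.26, SE 0.066, edgeR adjusted p = 0.0224). The gene was not called when Control 1 was left out (adjusted p = 0.0744), nor without Control 2 (0.0637), TAF15 OE 2 (0.0750) or TAF15 OE 3 (0.0669), while the fold change stayed between -0.31 and -0.24 with each library left out in turn. On FPKM limma gave adjusted p of 0.0531 to 0.0817. It was kept with Control 1 and TAF15 OE 1 both left out (edgeR adjusted p = 0.0302). The authors' deposited table also gives a fold change below 1 for all 10 genes, with an adjusted p under 0.05 for 5 of them. In the authors' deposited table these are Tubb3 (7.1e-05), Ina (0.00209), Stmn2 (0.00311), Nefl (0.0421) and Nefh (0.0483). That table rests on the same libraries, and its shares over all genes were not computed, so nothing is read from the 5. The edgeR fit, which called 3 of the 10 lower, cannot stand in for those shares. In that fit 67.0% of the abundant genes had a negative fold change and 16.9% were called lower.

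Library by library, the mean of the 10 genes was below that of Control in each TAF15 OE mouse, with another gene lowest in each. Relative to the Control mean, the 10 genes averaged -0.13 on the log2 scale in TAF15 OE 1, -0.22 in TAF15 OE 2 and -0.24 in TAF15 OE 3, against 0.05, -0.03 and -0.01 in Control 1, 2 and 3. In TAF15 OE 1 9 of the 10 lay below the Control mean, the exception being Nefm (0.14), and Tubb3 was lowest (-0.39). In TAF15 OE 2 and TAF15 OE 3 all 10 lay below it, with Ina lowest in the former (-0.46) and Nefl in the latter (-0.49).

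**Figure D3:**
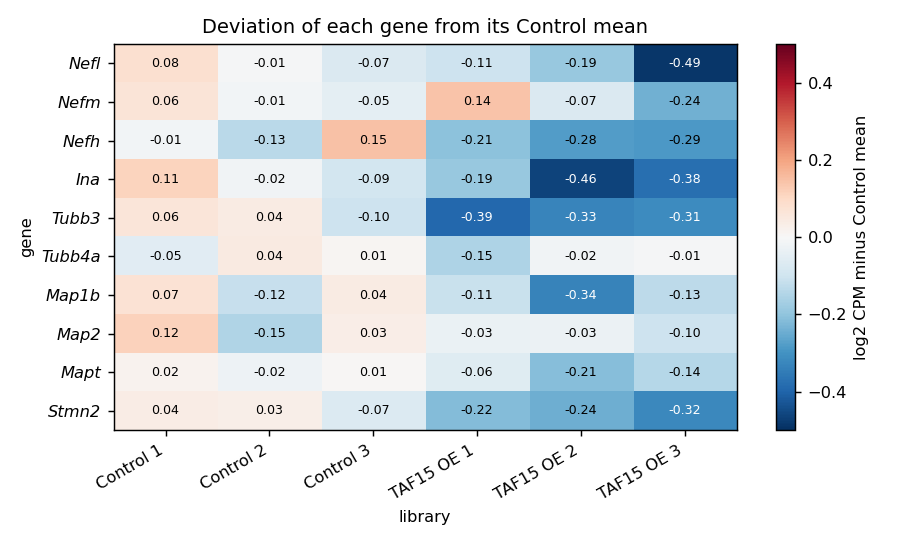
Log2 CPM of each gene in each library minus its mean over the 3 Control libraries (colour scale and printed values; blue is lower, red is higher). TAF15 OE 1 to 3 are blue for nearly every gene, with Nefm in TAF15 OE 1 (0.14) the exception, and the lowest cells are Nefl in TAF15 OE 3 (-0.49) and Ina in TAF15 OE 2 (-0.46).

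Per length of gene, Tubb4a was the most abundant of the 10 at a mean of 320.6 FPKM over the 6 libraries (294.8 to 336.7), and Tubb3 followed at 111 (95.0 to 128) with no overlap. Nefl (78.4 FPKM, 62.5 to 87.0), Map1b (70.3), Map2 (67.6), Mapt (65.2) and Ina (58.9, 48.6 to 68.5) came next, and each of these overlapped its neighbour in the order. Below them stood Stmn2 (39.5, 35.4 to 44.0) and Nefm (32.3, 28.6 to 36.3), which overlapped each other, and Nefh was the lowest at 13.5 (12.3 to 16.05). The FPKM values rest on the union of annotated exons, from 1868 bases for Tubb3 to 16449 for Map2.

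General neuron markers moved the same way. The marker counts stand against 5.95% called lower and 9.32% higher among all tested genes, and 16.9% lower among the abundant genes. Nothing is read from the small counts of the interneuron and immature neuron lists. Of 10 such markers 7 were called lower and 0 higher (median log2 fold change -0.28), among them Rbfox3 (-0.50), the gene of the NeuN antigen, and Thy1 (-0.35). Their summed level ran from 6595 to 6981 CPM in Control and from 5482 to 5695 in TAF15 OE, with no overlap. Interneuron markers had 2 of 8 lower, Sst (-0.38) and Pvalb (-0.48), with summed levels of 711 to 782 CPM in Control and 621 to 729 in TAF15 OE. Most markers of glia were higher in TAF15 OE. Of 10 oligodendrocyte markers 8 were called higher (median 0.46; Mag 0.53, Cldn11 0.49), and their sum ran from 5238 to 5656 CPM in Control and from 6440 to 8350 in TAF15 OE. Of 8 astrocyte markers 6 were higher (median 0.53; Gfap 2.07, Aqp4 1.23), with sums of 4942 to 6176 and 8548 to 9370 CPM. Of 8 microglia markers 7 were higher (median 1.13; Trem2 1.51, Cx3cr1 1.20), with sums of 465 to 517 and 936 to 1436 CPM. Of 5 endothelial markers 2 were higher (median 0.55; Pecam1 0.59, Tek 0.49), with sums of 120 to 168 and 169 to 249 CPM. Of 6 immature neuron markers 1 was higher (median 0.26; Sox11 0.69), with sums of 110 to 117 and 120 to 152 CPM, and of 6 choroid plexus markers 0 were called by edgeR (median 0.42, sums of 105 to 4470 and 1434 to 4728 CPM). No marker of these lists was at 0 in all libraries. The part of these marker differences in the results for the 10 genes was not tested. The call of Pvalb was lost without Control 1 (edgeR adjusted p = 0.104), Control 2 (0.0610) or TAF15 OE 3 (0.0636), and that of Sst without Control 2 (0.0718). Both were lost under scaling on general neuron markers (edgeR adjusted p of 0.229 for Pvalb and 0.444 for Sst). On FPKM limma called neither (adjusted p of 0.0598 to 0.213). The call of Sox11 was lost without Control 2 (0.0917), Control 3 (0.0798) or TAF15 OE 2 (0.0733). The call of Pecam1 was lost without Control 2 (0.0541), and that of Tek without each library except Control 3, at adjusted p of 0.0531 to 0.0924. With Control 1 and TAF15 OE 1 both left out, Pvalb (0.117), Pecam1 (0.0578) and Tek (0.0798) were not called.

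When the libraries were scaled on the summed counts of the general neuron markers, the 10 genes no longer moved down together. This scaling moved the median of all tested genes up by 0.28, from 0.026 to 0.30, and the median of the 10 from -0.22 to 0.056. A change of scaling shifts every gene by nearly the same amount. The 10 genes therefore stayed 0.25 below the median of all genes by construction, and nothing is read from this. Under TMM scaling the median of the abundant genes was -0.08. Measured against neuron markers, Tubb3 (-0.07, edgeR adjusted p = 0.421) and Ina (-0.06, adjusted p = 0.488) were the negative ones and neither was called. Ina, Stmn2 (0.017), Nefh (0.014) and Nefl (0.025) lay within 1 SE of 0. Nefm (0.23, edgeR adjusted p = 0.0434), Tubb4a (0.22, adjusted p = 0.0381) and Map2 (0.22, adjusted p = 0.0317) were called higher under this scaling, and Mapt (0.14) and Map1b (0.087) were not called. Calls under this scaling are of the change relative to the neuron markers, and 6485 of the tested genes were called higher there.

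**Figure D4:**
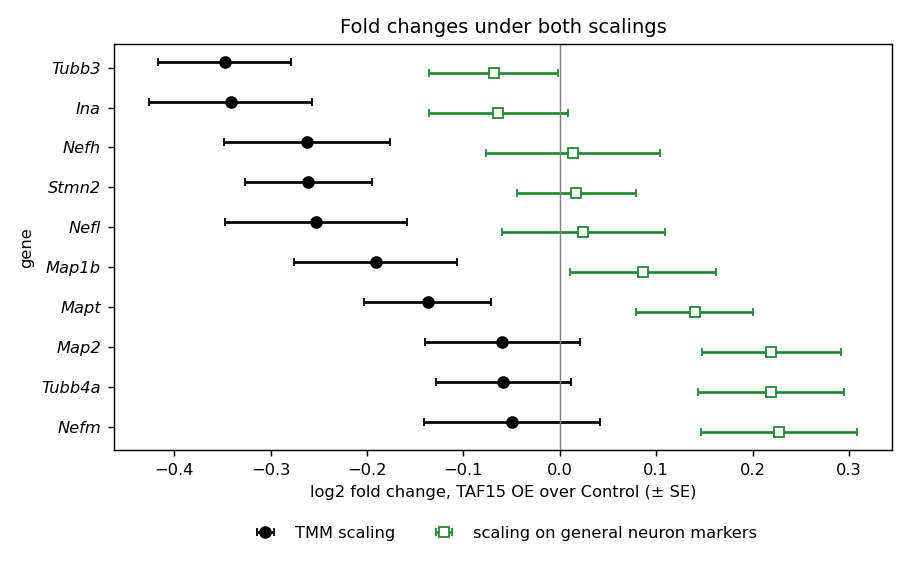
Log2 fold change of the 10 genes, TAF15 OE over Control, with bars of 1 SE, under TMM scaling (filled circles) and under scaling on 10 general neuron markers (open squares). All 10 circles lie left of 0, and 8 of the 10 squares lie right of it; the squares sit 0.28 further right because that scaling moved all genes.

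Beyond the 10 genes, 132 other genes were listed in 16 families, of which 129 were tested, 30 called lower (23.3%) and 7 higher (5.43%). They are called cytoskeleton genes here and below. However, 1 of the 16 families holds axon injury response genes, most of them not parts of the cytoskeleton. That family gave 2 of the 7 genes called higher, Atf3 and Sox11. Over the 129 the median log2 fold change was -0.10 and 65.1% were negative. Over all tested genes 5.95% were called lower and 46.3% were negative, and among the abundant genes 16.9% and 67.0%. With the 10 genes counted in their own families, where Nefl and Tubb4a themselves set the median of the neuronal filaments and the beta tubulins, 13 of the 16 lists had a negative median, and under scaling on general neuron markers all 13 medians turned positive, between 0.025 and 0.24. With total counts 1 of the 13 did. With Control 1 and TAF15 OE 1 both left out, 28 were called lower and 6 higher, against 1017 and 1197 over all genes. Alpha tubulin, the partner of beta tubulin, had 1 of 5 members lower, Tuba4a (-0.50). In the families that hold the 10 genes, the beta tubulins had 2 of 7, Tubb3 and Tubb2a (467 ± 30.7 to 349 ± 8.73 CPM, -0.42). The stathmins had 2 of 4 lower, Stmn2 and Stmn3 (-0.36), which acts on microtubules in neurons, and the neuronal intermediate filaments had 1 of 5, Ina. The structural microtubule-associated proteins had 3 of 14 lower, Map7d2 (-0.35) and the doublecortin-like kinase genes Dclk1 (-0.33) and Dclk2 (-0.24), of which none is among the 10. The shares of these proteins, of the alpha tubulins and of the neuronal intermediate filaments were near the 16.9% of the abundant genes, and nothing is read from them. Non-neuronal intermediate filaments ran the other way. The astrocyte filament gene Gfap rose from 617 ± 66.1 to 2588 ± 114 CPM (log2 fold change 2.07) and Vim, of astrocytes, vessels and other cells, from 55.1 ± 9.16 to 219 ± 34.3 CPM (1.99), 2 of 5 tested (median 0.66). The 3 nuclear lamin genes had a median of 0.18 and 0 were called by edgeR. The call of Dclk1 was lost without Control 1 (edgeR adjusted p = 0.0981), Control 2 (0.0779), Control 3 (0.0579), TAF15 OE 2 (0.111) or Control 1 and TAF15 OE 1 together (0.0790). That of Dclk2 was lost without Control 1 (0.0899), Control 3 (0.0861), TAF15 OE 2 (0.114) or TAF15 OE 3 (0.0770), and that of Stmn3 without Control 2 (0.0539). On FPKM limma called none of Dclk1, Dclk2 and Stmn3 (adjusted p of 0.0591 to 0.201). Under scaling on general neuron markers Tuba4a kept its call and Tubb2a, Stmn3, Map7d2, Dclk1 and Dclk2 did not, Dclk2 at 0.035. With total counts Dclk1 and Dclk2 were not called (edgeR adjusted p of 0.0543 to 0.0544).

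The spectrin skeleton lies with actin under the membrane, and dynein and the kinesins are motors that walk on microtubules. Their counts, and those of the enzymes and regulators after them, stand against 16.9% called lower among the abundant genes and 5.95% among all tested genes. The shares of the kinesins, of the tubulin-modifying enzymes and of the actin regulators were near the former, and nothing is read from them. Of 10 spectrin, ankyrin and axon initial segment genes 5 were lower (median -0.21). They included the spectrin gene Sptan1 (1124 ± 29.0 to 931 ± 38.3 CPM, -0.27), the adducin gene Add2 (-0.54) and Trim46 (-0.39), which orients microtubules at the start of the axon. Of 9 dynein and dynactin genes, parts of the motor that carries cargo back to the cell body, 4 were lower (median -0.13), Dynll1 (-0.47), Dync1i1 (-0.42), Dync1li1 (-0.26) and Dctn1 (-0.23). Of 13 kinesin genes, which carry cargo outward, 3 were lower (median -0.17), Klc2 (-0.39), Kif3c (-0.28) and Klc1 (-0.22). Add2 and Dynll1 kept the call with each library left out and under scaling on general neuron markers, where Sptan1 (0.0042), Dync1li1 (0.018), Dctn1 (0.045) and Klc1 (0.061) turned sign. Trim46, Dync1i1, Klc2 and Kif3c were not called under that scaling, and with total counts Klc1 (edgeR adjusted p = 0.0757), Dync1li1 (0.0504) and Dctn1 (0.0616) were not. The call of Sptan1 was lost without Control 3 (edgeR adjusted p = 0.0815) or TAF15 OE 2 (0.107). The call of Kif3c was lost without Control 1 (0.0958), Control 3 (0.0602), TAF15 OE 2 (0.0972) or TAF15 OE 3 (0.0593). The calls of Klc1, Dync1li1 and Dctn1 were lost without each library except TAF15 OE 1, at adjusted p of 0.0531 to 0.145, and that of Klc1 also with Control 1 and TAF15 OE 1 both left out (0.0588). On FPKM limma called none of Kif3c, Klc1, Dync1li1 and Dctn1 (adjusted p of 0.0604 to 0.135).

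Among the enzymes and regulators, 5 of 11 kinase genes that act on tau and neurofilaments were lower (median -0.12). The cyclin-dependent kinase 5 activator genes Cdk5r2 (-0.44) and Cdk5r1 (-0.26) were among them, with Mark4 (-0.29) and Ttbk1 (-0.29), kinases of tau. Of 15 actin regulator and growth cone genes 3 were lower, Crmp1 (-0.46), of the collapsin response mediator family, the drebrin gene Dbn1 (-0.37) and the profilin gene Pfn2 (-0.34). Marcks (0.45), a membrane-bound actin regulator of many cell types, was higher (median of the list -0.10). Of 14 tubulin-modifying enzymes 3 were lower, the polyglutamylase gene Ttll11 (-0.41), the deglutamylase gene Agtpbp1 (-0.31) and the tubulin tyrosine ligase gene Ttl (-0.30), and Sirt2 (0.26), a deacetylase abundant in oligodendrocytes, was higher (median -0.12). Of 13 end-binding and cross-linking genes Mapre3 (-0.24) was lower and Mapre1 (0.30) higher (median -0.10), and of 6 severing enzyme genes 0 were called by edgeR (median -0.03). Of 8 axon injury response genes 6 were tested and 2 were higher (median 0.39). These were Atf3, a stress-responsive transcription factor (1.43 ± 0.353 to 3.21 ± 0.113 CPM, 1.16), and Sox11 (20.9 ± 2.58 to 33.8 ± 7.85 CPM, 0.69), which is also on the immature neuron list, while Sprr1a and Gal were too low to test. Crmp1 kept its call under scaling on general neuron markers, and the other genes named here as lower did not, with Mapre3 (0.035) and Cdk5r1 (0.016) turning sign. The calls of Crmp1, Cdk5r2, Mark4 and Pfn2 held with each library left out in turn. Those of Ttll11, Mapre3 and Dbn1 were lost without each library except TAF15 OE 1, at edgeR adjusted p of 0.0539 to 0.136. Those of Agtpbp1, Ttl, Ttbk1 and Cdk5r1 were lost without Control 1, Control 3, TAF15 OE 2 or TAF15 OE 3, at adjusted p of 0.0579 to 0.139. With total counts Mapre3 (0.0641) and Cdk5r1 (0.0581) were not called, with limma-voom Ttbk1 (0.0541) and Cdk5r1 (0.0532), and with the size factors of DESeq2 Sirt2 (0.0524). On FPKM limma called none of Ttl, Agtpbp1, Ttll11, Dbn1, Mapre3, Ttbk1, Cdk5r1 and Sox11 (adjusted p of 0.0503 to 0.181). The call of Cdk5r1 was also lost without both Control 1 and TAF15 OE 1 (0.0640). Mapre1 was not called without Control 1, Control 2, TAF15 OE 2 or TAF15 OE 3 (0.0534 to 0.0903), nor Atf3 without Control 1, Control 3, TAF15 OE 2 or TAF15 OE 3 (0.0508 to 0.0584). Sox11 was not called without Control 2 (0.0917), Control 3 (0.0798) or TAF15 OE 2 (0.0733), and Sirt2 without each library except TAF15 OE 3 (0.0710 to 0.164), nor without both Control 1 and TAF15 OE 1 (0.143).

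**Figure D5:**
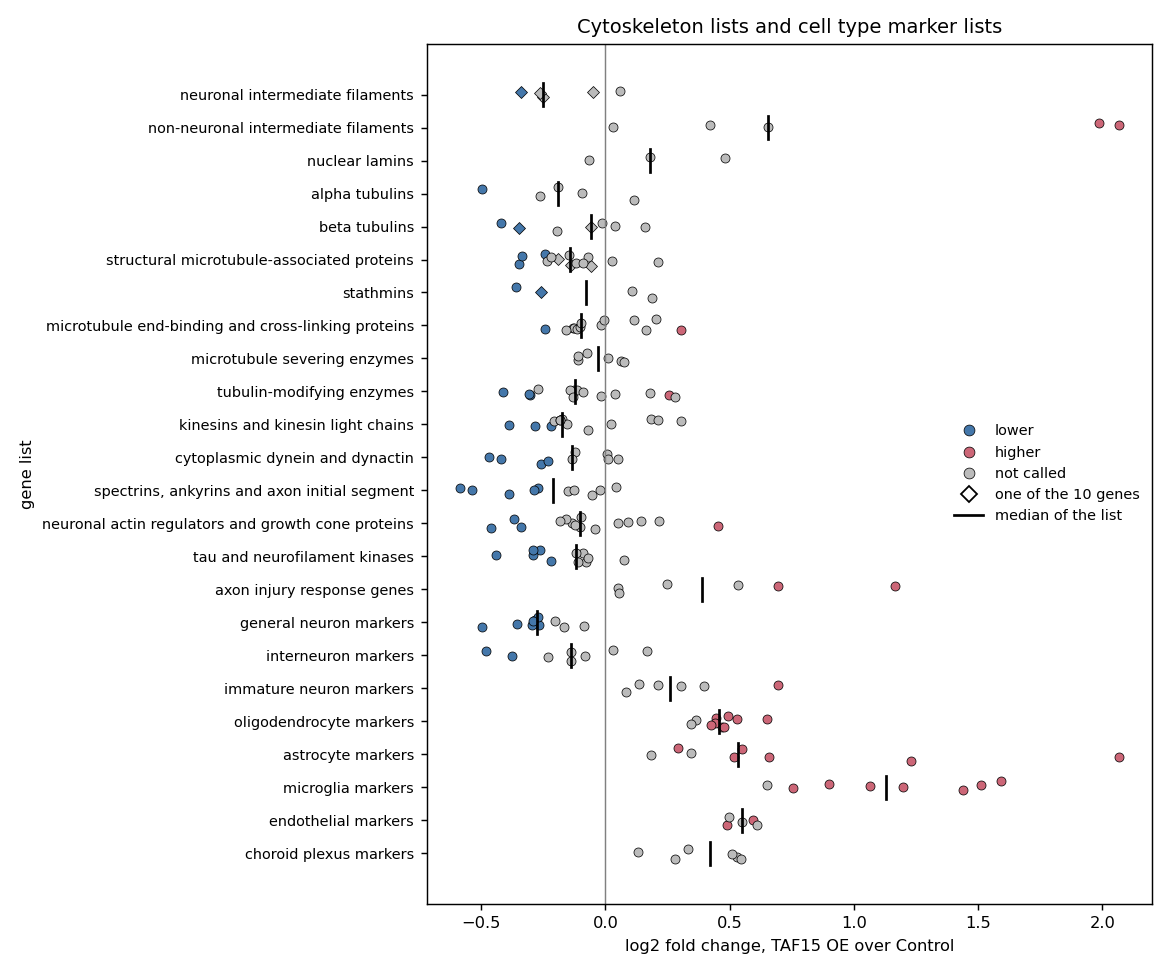
Log2 fold change, TAF15 OE over Control, of each tested gene in the cytoskeleton lists and the cell type marker lists; blue and red points were called lower and higher, grey points were not called, diamonds are the 10 genes and black bars the list medians. The neuronal cytoskeleton lists lie mostly left of 0, and the non-neuronal intermediate filaments and glial markers right of it; under scaling on general neuron markers the 13 cytoskeleton lists with negative medians turn positive.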

How the data were processed

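RNA was sequenced from the hippocampus of 6 mice, 3 per group, with 1 mouse per library, and the titles of the samples gave groups and replicate numbers. The build was GRCm38 and the tools named are HISAT2 2.1.0, Bowtie2 2.2.3, TopHat2 and CASAVA, per the submitters' processing notes; the sources used here do not name the read counter, annotation release or strandedness. Raw counts per gene were deposited as whole numbers by the authors. The deposited FPKM table holds the authors' values per gene length and library total. The authors' comparison table, per the file headers, gives a normalised signal, a fold change (ratio), its log2 value, a p-value and an adjusted p-value, and the test is not named.

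Counts were tested in R 4.3.3 with edgeR 4.0.16 (filterByExpr with minimum count 10 and minimum total 15, TMM factors of 0.964 to 1.03, robust glmQLFit, with no covariate beside the group), adjusted by Benjamini-Hochberg over 16758 genes and called under 0.05. CPM are counts relative to the scaled library total. Standard errors come from the F statistic. Ratios of FPKM were tested by exact permutation. Total counts of 14965464 to 16067000 set the precision, the common biological coefficient of variation was 13.1%, and no library pair was a duplicate (smallest chi-square per degree of freedom 5.07). The fits were tried on simulated counts over genes of all levels. Most seeded changes near the size seen in the 10 genes were missed there, and false calls exceeded the nominal share. Far fewer genes were changed there than were called in these data, so that recovery is not the power for the 10 genes. With 3 libraries per group, a gene that did not pass the test is not shown to be unchanged. Positions are of GRCm38 in GENCODE M21, where all 10 genes had the position and length of the authors' tables. Sequences came from that reference and from RefSeq, with Biopython 1.88, and figures from matplotlib 3.10.9.

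The genes, the lists and the tests were chosen with earlier results of these data known. The 10 genes and Taf15 were named in any case, then up to 4 called genes with the smallest p of each cytoskeleton list and up to 2 of each marker list; the remaining beta tubulins were named after their values were seen. A gene that this rule named is not reported here. The alternatives were DESeq2 1.42.0 (its size factors and its test), total counts, scaling on general neuron markers, no filter, a filter at a mean of 1 CPM, limma 3.58.1 (voom, and trend on log2 FPKM plus a pseudocount, 1 or 0.1, with or without a filter at a mean of 0.5 FPKM), the replicate number as a block, and leaving out each library. Leaving out Control 1 and TAF15 OE 1 together was chosen after the data were seen. The labels give no batch.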

Additional observations from a re-analysis of the deposited data

How the results depend on the processing

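Over all genes, 2559 were called, against 6627 under scaling on general neuron markers, 1502, 1537 and 601 by limma-trend on FPKM (pseudocount 1, pseudocount 0.1, and pseudocount 1 with no filter), and 1331 to 2501 with a library left out. The number of the 10 genes called lower, 3, became 0 under neuron marker scaling (3 called higher), 5 without a filter, 1, 1 and 0 in the FPKM fits, and 1 to 5 with a library left out. Of the other cytoskeleton genes, 30 were called lower, against 5 under neuron marker scaling, 21 with total counts, 14, 14 and 10 on FPKM and 14 to 34 with a library left out, and 7 higher, against 11 with total counts, 50, 3 on unfiltered FPKM and 3 to 6 with a library left out. Under neuron marker scaling the log2 fold change turned positive for Nefl (0.025), Nefm (0.23), Nefh (0.014), Tubb4a (0.22), Map1b (0.087), Map2 (0.22), Mapt (0.14), Stmn2 (0.017), Dclk2 (0.035), Mapre3 (0.035), Klc1 (0.061), Dync1li1 (0.018), Dctn1 (0.045), Sptan1 (0.0042) and Cdk5r1 (0.016), since that scaling moved the median of all genes by 0.28. With a library left out, Nefm ran from -0.18 to 0.029, the log2 ratio of Nefh over Nefl from -0.10 to 0.11 and that of Ina over Nefl from -0.18 to 0.013. The labels do not say whether libraries of the same replicate number belong together. Deviations of same-numbered libraries correlated at 0.126, 0.0776 and 0.0871, and every library correlated best with its own number. Whether they shared a step was not tested. With the replicate number as a block 3291 genes were called, 5 of the 10 lower (the 3 named as lower, with Nefl at adjusted p = 0.0154 and Map1b at 0.0371) and 11 of the other cytoskeleton genes higher. Other causes of these changes were not tested. With 3 libraries per group, the ratio tests could not give p below 0.1.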
